A study of Mus musculus with 6 samples.

Results

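Mesenchyme-only intronic regions were stretches of open chromatin, lying in introns of protein-coding genes, in which a nucleosome free region (NFR) peak was listed for all 3 libraries of palatal mesenchyme and for none of the 3 libraries of palatal epithelium. NFR peaks were called on the short fragments of ATAC-seq, an assay that uses the transposase Tn5 to tag open DNA. The peaks of the 6 lists were merged where they shared at least 1 bp, regions overlapping the start of a protein-coding transcript were set aside, and a region was called intronic when its midpoint lay in the body of a protein-coding gene and outside the exons. There were 3477 such regions among 707876 merged regions. They made up 46.0% of the 7554 mesenchyme-only regions, of which another 3583 (47.4%) lay between genes, 428 (5.67%) in exons and 66 (0.874%) over a start. These regions were selected on the presence of peaks in the 6 lists, so differences in peak presence between the tissues at these regions are given as a description, with no test.

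The palatal shelves came from C57BL/6 mouse embryos at E14.5, and the labels give no transgene, mutation or drug for either group. The epithelium was peeled by hand from trypsin-treated shelves, and the mesenchyme group was the tissue that stayed behind, so any endothelial, muscle, nerve or blood cells of the shelf were included with the mesenchymal cells. A library pooled cells of several embryos, of a number that is not the same in every source. In pooled tissue, fewer cells of a type and less open DNA per cell cannot be told apart.

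Much of the regulatory DNA of a gene lies in introns. An intronic enhancer can act on its host gene or on another gene some distance away, and it is bound by transcription factors that recognise short motifs in the part free of nucleosomes. The palatal mesenchyme, mostly from the cranial neural crest, makes the collagen-rich matrix of the shelf and later, through Runx2, the bone of the hard palate.

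The lists held 270003, 349322 and 296695 peaks in epithelium libraries 1, 2 and 3, and 295141, 341741 and 315468 in mesenchyme libraries 1, 2 and 3. A peak had no height or score, and the depth in reads is unknown, so a missing peak is not evidence of closed chromatin. Open starts barely separated the tissues. A start of each of 8 mesenchyme genes had a peak in all mesenchyme libraries, but 7 or 8 of these genes also had one in the epithelium libraries. Of 8 epithelium genes, all had an open start in the epithelium and 6 to 7 in the mesenchyme. Trp63, the master regulator of stratified epithelium, had no open start in any mesenchyme library, hosted none of the mesenchyme-only regions and held 8 epithelium-only ones. Peaks were also listed at starts of markers of other cell types in the mesenchyme: 2 to 3 of 4 endothelial, 2 immune, 3 to 4 muscle, 1 nerve and glia and 0 to 1 erythroid gene per library. The counts in epithelium libraries were 2 to 3, 2 to 3, 2 to 3, 1 to 2 and 1 to 3, and the part of these cell types in the mesenchyme-only set was not tested.

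Of the 140811 intronic regions that 2 or more libraries shared, here called kept regions, 2.47% were mesenchyme-only and 3.10%, or 4362, were epithelium-only. Another 21864 kept regions had a peak in all 6 libraries. Just outside the rule lay 5814 intronic regions with 1 epithelium library added and 14018 that lacked a peak in 1 mesenchyme library. The median mesenchyme peak was 341 bp wide in the mesenchyme-only regions, against 372 bp in the first of these neighbouring sets, whose epithelium peaks were 329 bp, and 289 bp in the second. The count depended on every library. It was 4871, 6288 and 5481 without epithelium library 1, 2 or 3, and 9088, 7904 and 8327 without mesenchyme library 1, 2 or 3, because a rule over 5 libraries asks for less.

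**Figure D1:**
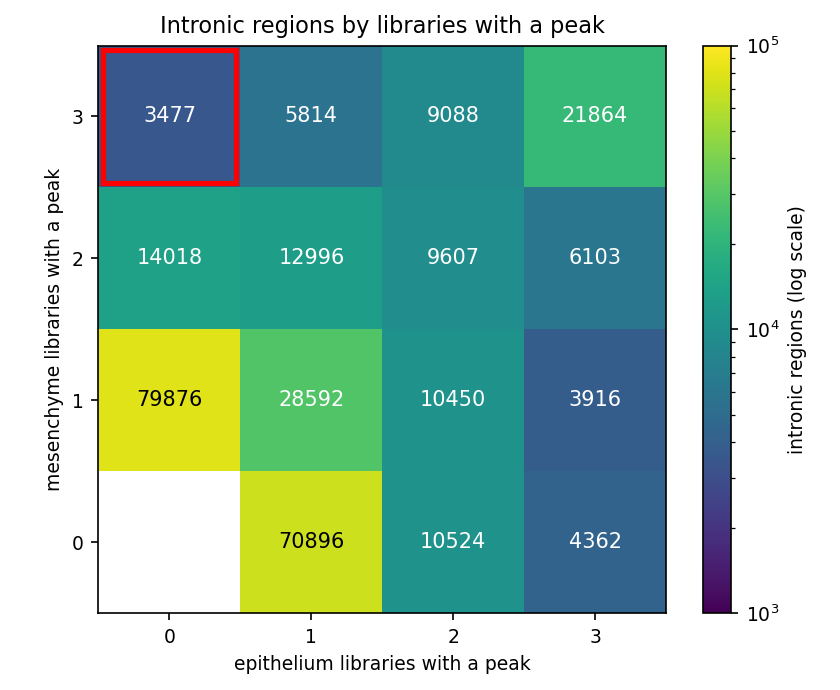
Numbers of intronic regions, by how many of the 3 epithelium libraries (x axis) and of the 3 mesenchyme libraries (y axis) had a peak in them; colour gives the count on a log scale. The mesenchyme-only corner, outlined in red, holds 3477 regions, fewer than the 14018 with a peak in 2 mesenchyme libraries and the 79876 with a peak in 1.

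The 3 mesenchyme libraries gave peaks of much the same size at these regions. The median width was 341, 338 and 344 bp in libraries 1, 2 and 3, and each library gave the widest peak at 33.5%, 32.8% and 34.2% of the regions. Where a library had 2 or more peaks in a region, as at 99, 113 and 102 regions in libraries 1, 2 and 3, their widths were added. The smallest width was 199 bp and the largest 3247 bp, in Wwox. Much less was shared base for base. The longest stretch inside a peak of all 3 libraries, called the core, had a median of 180 bp (quartiles 84.0 and 249 bp), and 443 regions (12.7%) had no core at all, since their peaks were joined only through a chain of overlaps. Another 1646 regions (47.3%) had a core of up to 199 bp, the median of the regions that had one, and 1388 (39.9%) a wider core. Among epithelium-only intronic regions 66.3% had an epithelium core over 199 bp, and 73.0% of the regions in all 6 libraries had a mesenchyme core of that width.

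The sequence at the core centre of 5 regions is printed here, because 3 of them carry the RUNX motif, which was more frequent in mesenchyme-only than in other intronic regions, and the other two lie in Runx2 and in Pdgfra, genes well known in the palatal mesenchyme. These 5 were picked, after their motifs were seen, from 13 that had been read. Each is 200 bases of mm10 (RefSeq GRCm38.p6), on the plus strand, 5′ to 3′, and capitals mark matches to the searched motifs. In Prrx1 and Gli2 the capitals are a RUNX match read on the minus strand. In Cacna1c they are a RUNX match followed by an NFI match. In Runx2 they are an NFI match, an E-box (CAGATG) and a TCF/LEF match (CTTTGAT). The Pdgfra stretch held no match.
Prrx1, chr1:163299639-163299838: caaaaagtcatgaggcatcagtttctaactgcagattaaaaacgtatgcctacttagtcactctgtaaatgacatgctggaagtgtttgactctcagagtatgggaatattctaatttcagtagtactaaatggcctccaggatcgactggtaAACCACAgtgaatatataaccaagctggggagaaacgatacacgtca
Gli2, chr1:119037707-119037906: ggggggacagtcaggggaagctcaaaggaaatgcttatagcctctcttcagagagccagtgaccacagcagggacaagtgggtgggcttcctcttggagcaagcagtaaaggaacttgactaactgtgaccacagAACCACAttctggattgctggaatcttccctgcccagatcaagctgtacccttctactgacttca
Cacna1c, chr6:118858572-118858771: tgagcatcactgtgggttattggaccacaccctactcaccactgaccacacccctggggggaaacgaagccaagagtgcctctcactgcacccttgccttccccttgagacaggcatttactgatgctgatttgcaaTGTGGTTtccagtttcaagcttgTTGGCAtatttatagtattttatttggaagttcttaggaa
Runx2, chr17:44592624-44592823: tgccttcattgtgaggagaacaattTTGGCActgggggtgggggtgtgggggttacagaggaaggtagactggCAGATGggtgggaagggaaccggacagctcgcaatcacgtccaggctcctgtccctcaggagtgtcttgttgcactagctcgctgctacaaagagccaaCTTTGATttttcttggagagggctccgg
Pdgfra, chr5:75158783-75158982: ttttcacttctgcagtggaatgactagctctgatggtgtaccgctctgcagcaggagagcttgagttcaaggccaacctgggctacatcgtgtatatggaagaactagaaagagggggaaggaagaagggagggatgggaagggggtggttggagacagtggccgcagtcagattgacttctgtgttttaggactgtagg

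Prrx1 encodes a homeobox factor of limb and craniofacial mesenchyme, and 3 of its 10 kept intronic regions were mesenchyme-only. Intronic regions of a gene that were neither mesenchyme-only nor epithelium-only, here called its other regions, were counted in each library, since the rule fixed the rest. Other regions with a peak in Prrx1 numbered 1, 4 and 2 in epithelium libraries 1, 2 and 3 and 5, 6 and 8 in mesenchyme libraries 1, 2 and 3. The tissues did not overlap at this gene. Every mesenchyme library had more other regions than every epithelium library in 688 of the 13988 genes with a kept region (4.92%), and every one had fewer in 210 genes. Its 3 regions were chr1:163266826-163267633, chr1:163299432-163300029 and chr1:163305737-163306429, with cores of 392, 423 and 374 bp, all well above the median. The printed Prrx1 region had peaks of 448, 598 and 487 bp and lay in intron 1, 13.9 kb from the annotated start.

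Gli2, a transcription factor that carries the Hedgehog signal, held 2 mesenchyme-only regions among 125 kept ones. The printed region, chr1:119037411-119038148, had peaks of 573, 654 and 738 bp and a core of 573 bp in intron 1. Its other regions overlapped between the tissues, with 64, 87 and 97 in the epithelium libraries and 86, 93 and 87 in the mesenchyme libraries. Pdgfra, a growth factor receptor of mesenchymal cells, held 1 such region among 12 kept ones, 2.94 kb from its start, with peaks of 442, 337 and 269 bp.

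Runx2, the factor required for osteoblasts, held 4 mesenchyme-only regions with cores of 318, 114, 266 and 259 bp. Its other regions numbered 42, 38 and 44 in the epithelium libraries and 43, 43 and 39 in the mesenchyme libraries. The tissues overlapped, and the gene also held 2 epithelium-only regions. The neighbouring Supt3, part of a transcription coactivator complex, held 2 mesenchyme-only and 2 epithelium-only regions.

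In all, 2422 protein-coding genes hosted a mesenchyme-only region, or 17.3% of the 13988 genes with a kept intronic region. Most, 1755, hosted 1 region, 405 hosted 2, 262 hosted 3 or more and 50 hosted 5 or more. Of the hosts, 900 (37.2%) also held an epithelium-only intronic region. These were 36.9% of the 2442 genes that held one, above the 17.3% of all 13988 genes that hosted a mesenchyme-only region. The number of kept regions per gene was not allowed for. Long genes led the ranking. The median host body was 129 kb, against 111 kb for all kept regions and 187 kb for epithelium-only ones.

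The 2 highest counts came from annotated bodies that span many genes. Gm20388, a read-through model of 4435 kb with 71 genes inside it, held 24 regions, of which 13 had a core over 199 bp, nearest to starts that included Irf8, Zfpm1 and Galnt2. The GENCODE body of Fgfr2, an Fgf receptor, ran over 2961 kb and 29 other genes and held 21 regions, but its RefSeq body of 104 kb held 1. Outside RefSeq bodies of protein-coding genes lay 113 of the 3477 regions (3.25%).

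Cacna1c and Rptor followed, with 12 and 11 regions. Cacna1c encodes the pore subunit of an L-type calcium channel, and 12 of its 180 kept regions (6.67%) were mesenchyme-only against 2 epithelium-only. Its other regions numbered 87, 116 and 128 in the epithelium libraries and 123, 143 and 132 in the mesenchyme libraries, which overlapped. None of the 12 had a core over 199 bp, and 5 had no core. Rptor encodes the scaffold of the growth kinase complex mTORC1, and 11 of its 128 kept regions (8.59%) were mesenchyme-only against 0 epithelium-only. Its other regions numbered 41, 77 and 67 in epithelium and 76, 107 and 86 in mesenchyme, and overlapped too. Of the 11, 5 had no core and 1 had a core over 199 bp.

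Limch1, an activator of non-muscle myosin, had a denser and better shared set. Its 6 regions were 12.2% of 49 kept ones, all had a core, and 4 cores were over 199 bp. Its other regions, 21, 34 and 27 in epithelium and 31, 48 and 45 in mesenchyme, overlapped. A group of 3 lay close together, at chr5:66992173-66992908, chr5:66993031-66993893 and chr5:66995729-66996282. Rad51b, a recombination gene, held 7 mesenchyme-only and 10 epithelium-only regions, and the homeobox gene Zfhx3 held 7 and 13. At Zfhx3 the 132, 171 and 138 other regions of the epithelium overlapped with the 164, 135 and 174 of the mesenchyme.

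The other leading hosts were Prkce, a protein kinase C, with 9 regions, Wwox, a fragile-site gene, with 8, Rbms3, an RNA-binding protein, with 7, the transmembrane collagen Col23a1 with 7 and Enox1 with 6. Col23a1 had no epithelium-only region, and its 67, 82 and 71 other regions in epithelium lay below the 96, 112 and 96 in mesenchyme. Of the 262 genes with 3 or more mesenchyme-only regions, 85 had no epithelium-only one. In all 2422 hosts, 900 (37.2%) held an epithelium-only region, so genes without one were less frequent in the 262 than in all hosts. Among all 2422 hosts, 197 (8.13%) had more other regions in every mesenchyme library than in every epithelium library, against the 4.92% of genes with a kept region. The number of kept regions per gene was not allowed for in either comparison.

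**Figure D2:**
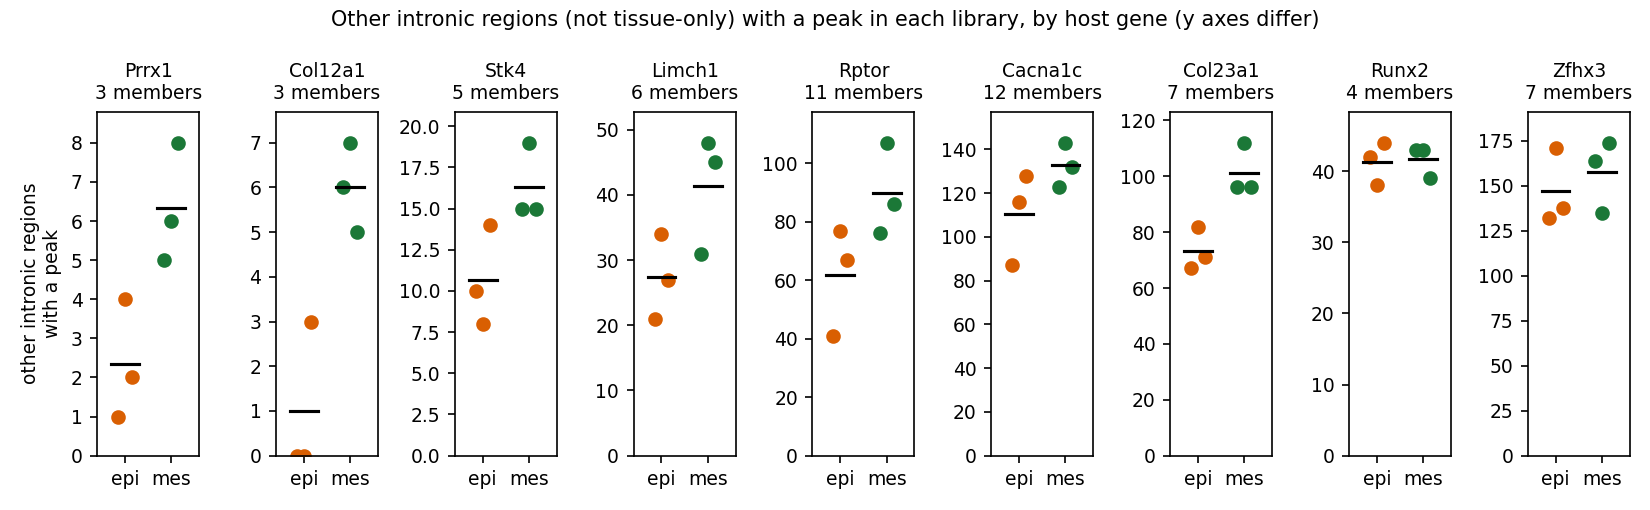
Other intronic regions (neither mesenchyme-only nor epithelium-only) with a peak in each epithelium (epi, orange) and mesenchyme (mes, green) library at 9 host genes; a dot is a library, a bar the mean of 3, and each y axis has its own range from 0. The titles give the mesenchyme-only regions, which are not in the counts. The tissues do not overlap at Prrx1, Col12a1, Stk4 and Col23a1, and overlap at Limch1, Rptor, Cacna1c, Runx2 and Zfhx3.

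The widest shared cores lay in Wwox and Gm20388, both among the leading hosts, and in genes with fewer regions. The core reached 1129 bp in Wwox, 1123 bp in Arhgap26 and 1019 bp in Mcu, the calcium uniporter of mitochondria. Cores of 818, 784, 781, 767, 715, 701 and 676 bp lay in Gm20388, Stx8, Mybphl, Elmo1, Cenpp, Vit and Dlg2. The host was often not the nearest gene. The Arhgap26 region lay 23.4 kb from a start of the growth factor gene Fgf1, and the Stx8 region 198 kb from a start of the guidance gene Ntn1. The Mybphl region lay in an intron of 1.24 kb, with peaks of 851, 880 and 1034 bp, and carried a RUNX and a TEAD match around its midpoint.

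Matrix genes were hosts more often than the 17.3% of all genes with a kept region. So were all the other tissue and pathway lists except the epithelial genes, and the number of kept regions per gene was not allowed for. Of 42 collagens and fibrillar matrix genes with a kept region, 20 (47.6%) hosted 41 mesenchyme-only regions, which were 3.69% of the list's kept regions against 2.47% of all, and its 28 epithelium-only regions were 2.52% against 3.10%. Col12a1, a collagen on the surface of fibrils, had 3 mesenchyme-only regions among 6 kept ones, and its other regions numbered 0, 0 and 3 in the epithelium and 6, 7 and 5 in the mesenchyme, without overlap. Those 3 were chr9:79608011-79608594, chr9:79608797-79609181 and chr9:79653787-79654330, with cores of 431, 186 and 241 bp. Fn1, which encodes fibronectin, held 2 among 8 kept regions (2, 3 and 5 other regions in epithelium, 7, 5 and 5 in mesenchyme, where the ranges met), and the elastic fibre gene Fbln5 held 3 among 23.

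Matrix remodelling enzymes hosted in 18 of 40 genes (45.0%), with 28 regions or 3.33% of those kept, beside 32 epithelium-only ones (3.81%). P4ha2, a collagen prolyl hydroxylase, had 4, 7 and 5 other regions in epithelium and 10, 10 and 10 in mesenchyme, without overlap, and 2 of its 13 kept ones were mesenchyme-only. Loxl2, a collagen cross-linking oxidase, held 2 among 9 and the protease Adamts17 held 4 among 91. Of the list's regions 25.0% had no core. Proteoglycans and matricellular genes hosted in 8 of 31 (25.8%), with 19 regions or 3.64% of those kept, beside 23 epithelium-only ones (4.41%), and 63.2% of them had a core over 199 bp. The glypican Gpc6 held 6 of these and Sdc2, a syndecan, held 2 among 8 kept. For Podn the 2 regions lay outside the RefSeq body.

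Osteogenic and cartilage genes gave the highest share among the lists of the tissue and its signals. They hosted in 10 of 23 genes (43.5%), and 21 regions made up 4.46% of those kept. The list's 20 epithelium-only regions made up 4.25%, so both shares lay above those of all kept regions, 2.47% and 3.10%. Runx1, a relative of Runx2, held 4 regions and 1 epithelium-only one, Sox5, a cartilage factor, held 4 and 9, and Mef2c held 2 of 7 kept regions. Cbfb, the partner subunit of RUNX proteins, held 1 of 3.

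Palate mesenchyme transcription factors hosted in 14 of 44 genes (31.8%), with 30 mesenchyme-only regions (2.76%) and 49 epithelium-only ones (4.52%). After Zfhx3 the counts were 4 in Mecom and 3 each in Prrx1 and Tshz2. Among orofacial cleft genes 13 of 37 (35.1%) hosted 35 regions, or 2.33% of those kept, but with RefSeq bodies, which remove the long Fgfr2 model, 12 genes hosted 14 regions, or 1.90%.

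In the Hedgehog, Wnt, Bmp and Tgf-beta, and Fgf, Pdgf and Igf pathways, the share of kept regions that were mesenchyme-only ran from 2.22% to 2.75% with GENCODE bodies, beside 2.47% of all. The Hedgehog pathway had 6 hosts of 16 genes (37.5%) and 10 regions (2.22%), 3 of them in Sufu, a repressor of Gli factors, and 1 in the signal transducer Smo. The Wnt pathway had 17 of 52 (32.7%) and 27 regions (2.74%), 4 in the receptor Ror1 and 3 in the nuclear effector Lef1. The Bmp and Tgf-beta pathway had 12 of 41 (29.3%) and 16 regions (2.75%), and all of them had a core. Bmpr2, a type II Bmp receptor, had 1, 3 and 0 other regions in the epithelium and 4, 4 and 1 in the mesenchyme, which overlapped, and 2 of its 6 kept ones were mesenchyme-only. The Fgf, Pdgf and Igf pathway had 11 of 36 (30.6%) and 35 regions (2.75%), of which 15 (2.87%) remained with RefSeq bodies.

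The Hippo pathway and Tead factors hosted in 9 of 20 (45.0%), with 21 regions (4.02%) and 19 epithelium-only ones (3.63%). Stk4, a core kinase of the pathway, had 10, 8 and 14 other regions in epithelium and 15, 19 and 15 in mesenchyme, without overlap, and 5 of its 23 kept ones were mesenchyme-only. Only 1 of those 5 had a core over 199 bp. Tead1, a DNA-binding factor of the pathway, held 4.

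Guidance molecules and receptors hosted in 19 of 47 (40.4%), with 39 regions (3.00%) and 76 epithelium-only ones (5.86%). Slit3, a secreted repellent, held 6 and 2, whereas its receptor Robo1 held 4 and 8. Integrins, cadherins and other adhesion genes hosted in 16 of 45 (35.6%), with 38 regions (2.75%) and 58 epithelium-only ones (4.20%). Ctnna3 and Cdh4 each held 6 and 4, Cdh13 held 6 and 5, and Ctnna2 held 2 and 6. Cdh2, the cadherin of mesenchymal cells, held 3 among 14 kept regions and 1 epithelium-only one. The focal adhesion gene Tln2 held 4 with no epithelium-only region.

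Epithelial genes hosted least often among the tissue and pathway lists, in 6 of 46 genes (13.0%). Their 29 regions (2.27%) fell to 9 (1.76%) with RefSeq bodies, and the list held 47 epithelium-only regions there. Grhl2, an epithelial transcription factor, held 1 and 2. The endothelial markers had 2 hosts of 17 (4 regions, in Erg and Fli1), the immune markers 3 of 17 (3 regions), the muscle markers 2 of 15 (3 regions), the nerve and glia markers 3 of 14 (6 regions, 5.45%, against 17 epithelium-only, 15.5%), the erythroid markers 0 of 4 and the control genes 1 of 9. Their part in the mesenchyme-only set was not tested.

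Away from the rule, the mesenchyme-only regions resembled the kept intronic regions in base composition and position more than the epithelium-only regions did. The median GC content of the central 200 bp was 51.5%, against 52.0% of kept regions, 46.0% of epithelium-only and 54.0% of regions in all 6 libraries. Repeats covered 17.5% of these bases, against 21.8% in kept regions. The first intron held 27.6% of the placed regions, close to the 28.1% of kept ones. The median distance to the nearest start was 23.6 kb, between the 31.7 kb of epithelium-only regions and the 15.9 kb of regions in all 6 libraries, and 14.6% lay within 5 kb of a start against 17.6% of kept ones. Of the mesenchyme-only regions, 432 (12.4%) lay within 10 kb of another, and 997 (28.7%) within 50 kb of an epithelium-only intronic region. These are counts only, with no share of other intronic regions beside them.

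Of the 19 motifs searched, the RUNX, homeobox, NFI and, by a small margin, TFAP2 motifs were more frequent in mesenchyme-only regions than in each of the other 3 sets at equal GC content. The RUNX motif (TGTGGTT, both strands) was found in the central 200 bp of 298 mesenchyme-only regions, or 8.57% (Clopper-Pearson 95% interval 7.66 to 9.55%), against 4.91% of all kept intronic regions, 5.87% of epithelium-only regions and 4.24% of regions in all 6 libraries. Weighted to the same GC content, the last 3 shares were 5.42%, 4.66% and 5.19%. A shuffled version (TGTTGGT) was found in 2.39% and in 2.64% of kept regions. A match is a description of the letters, not a bound site, and the intervals cover counting error only.

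The homeobox core (TAATTA) followed, with 4.43% against 2.80% of kept regions at the same GC content, and the NFI motif (TTGGCA), which matches a single arm of the palindrome, with 14.6% against 11.5%. TFAP2 (GCCNNNGGC) was found in 7.59% (95% interval 6.73 to 8.52%), and the interval held the 7.05% of regions in all 6 libraries and the 6.73% of epithelium-only regions at the same GC content; unweighted, regions in all 6 libraries had a higher share, 1967 of 21864. In all, 759 regions held a RUNX or an NFI match and 46 held both. Shares below those of kept regions were seen for the E-box CAGGTG, of the kind bound by Snail and Zeb factors, with 13.5% against 18.6%, the MEIS motif (TGACAG), with 13.7% against 16.5%, and the SOX motif (ACAATGG), with 1.84% against 2.62%. The GRHL motif (AACCNGTT), of factors that open epithelial chromatin, was in 22 regions, 0.633% against 1.43%. It was in 2.86% of epithelium-only regions at the same GC content (3.62% unweighted). The TEAD motif (ACATTCC) was in 3.34% against 3.35% of kept regions, and AP-1 (TGANTCA) in 7.59% against 6.99%. TEAD was in 6.27% of epithelium-only regions at the same GC content (7.96% unweighted). The shares of kept regions given here are all at the same GC content.

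RUNX matches rose with the width of the core. They were in 4.74% of the 443 regions with no core (21 regions), in 7.47% of those with a core of up to 199 bp and in 11.1% of those with a wider core. The NFI motif went from 9.93% through 12.9% to 18.1%, and the homeobox core from 2.48% through 3.83% to 5.76%. The E-box CAGGTG fell from 18.3% through 16.0% to 9.08%, and the shuffled RUNX motif stayed between 2.16% and 2.61%. In epithelium-only regions, sorted by the core of the epithelium libraries, the RUNX motif also went up, from 1.92% through 4.55% to 6.77%, whereas CAGGTG went from 19.2% to 22.6%. Repeats covered 20.0%, 19.6% and 14.3% of the 3 mesenchyme-only classes, and the part of repeats in these shares was not tested.

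**Figure D3:**
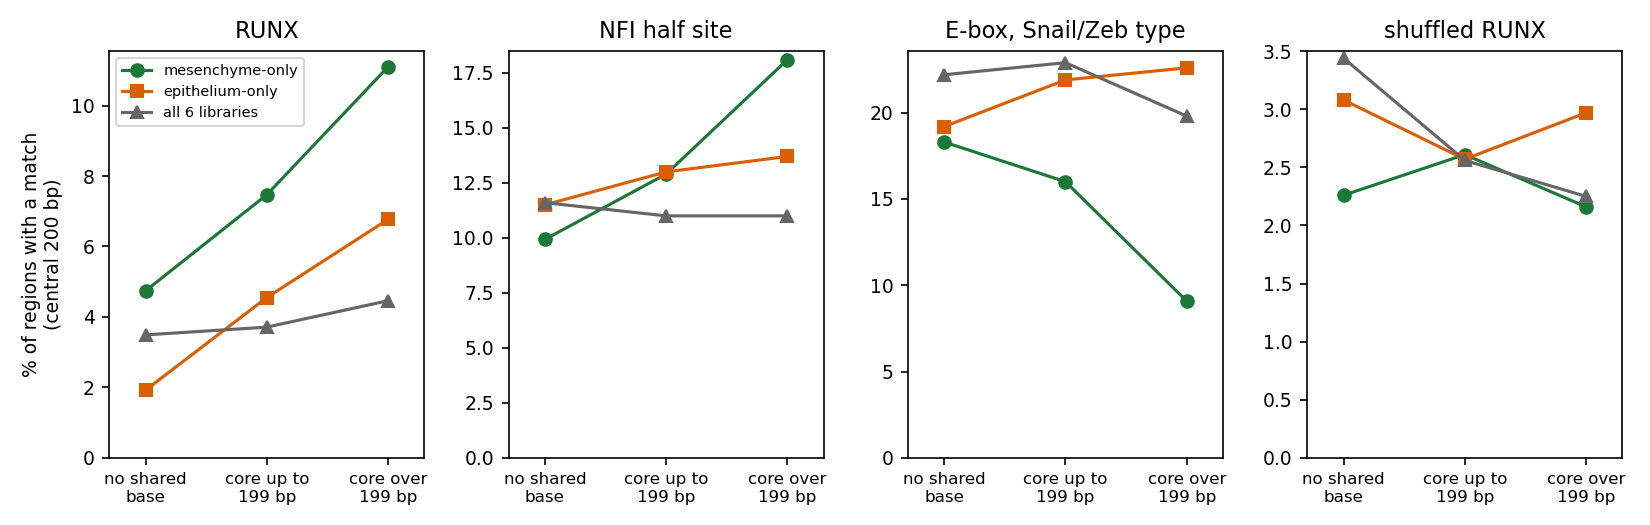
Share of regions with a motif match in their central 200 bp (y axis, in percent, from 0), by the width of the core shared by the 3 libraries of a tissue (x axis), in mesenchyme-only (green), epithelium-only (orange) and all-6 (grey) intronic regions. In the mesenchyme-only regions RUNX goes from 4.74% to 11.1% and the Snail/Zeb type of E-box from 18.3% to 9.08%.

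The RUNX share also marked the mesenchyme-only regions off from their near neighbours. Among intronic regions with no epithelium peak it was 5.81% with 1 mesenchyme library, 6.31% with 2 and 8.57% with 3. With all 3 mesenchyme libraries it was 5.35%, 5.13% and 4.24% when 1, 2 or 3 epithelium libraries had a peak too. GRHL matches were in 1.08%, 1.06% and 0.633% along the first series and in 1.14%, 1.18% and 1.29% along the second. None of these shares was weighted for GC content. Median GC was 50.0%, 51.5% and 51.5% along the first series and 53.0%, 53.5% and 54.0% along the second. At equal GC content the RUNX share in regions of all 6 libraries was 5.19%. The part of GC content in these series was not tested.

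Within the regions, RUNX matches were densest in the middle. They numbered 22.9 per 1000 regions per 50 bp in the central 200 bp and 12.8 more than 300 bp from the midpoint. The values were 15.6 and 12.5 in epithelium-only regions, and 11.4 and 11.2 in regions of all 6 libraries. NFI matches in the mesenchyme-only regions were 40.7 and 28.3, the shuffled RUNX motif 6.04 and 7.80, and homeobox matches 12.2 and 16.3.

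**Figure D4:**
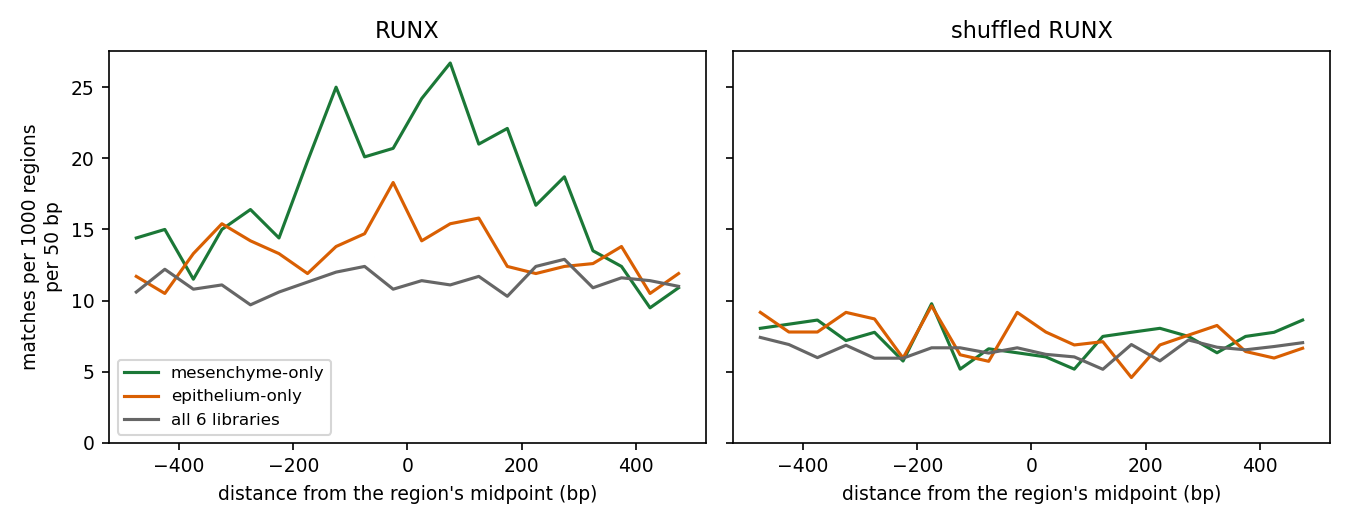
Matches per 1000 regions per 50 bp (y axis, from 0) by distance from the region's midpoint in bp (x axis), for the RUNX motif and its shuffled version in mesenchyme-only, epithelium-only and all-6 intronic regions. The mesenchyme-only line averages 22.9 in the central 200 bp and 12.8 beyond 300 bp for RUNX, and the shuffled motif shows no such rise.

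Peaks that the rule did not use gave a separate view of the motifs. Intronic peaks listed in a single library were counted for each library: 17894, 30854 and 22148 such regions in epithelium and 23129, 32565 and 24182 in mesenchyme. RUNX matches were in 5.02%, 5.04% and 4.95% of them in epithelium libraries 1, 2 and 3 and in 6.01%, 5.84% and 5.58% in mesenchyme libraries 1, 2 and 3. The tissues did not overlap, and the mean was 5.00% ± 0.0451 (SD, n = 3) in epithelium and 5.81% ± 0.215 (SD, n = 3) in mesenchyme, a difference of 0.806 percentage points (exact permutation p = 0.1, two-sided). With 3 against 3 libraries no smaller p can be reached, so none of the 19 motifs could pass 0.05, and the Benjamini-Hochberg adjusted p over them was 0.238.

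For 8 of the 19 motifs, or 42.1%, the epithelium and mesenchyme values were fully separate. Mesenchyme was higher by 0.342 points for the E-box CAGCTG and by 0.326 for EBF (CCCNNGGGA), besides RUNX, although the CAGCTG difference turned to -0.0730 at equal GC content. It was lower for CAGGTG (-0.868), MEIS (-0.754), SOX (-0.568), FOX (GTAAACA, -0.337) and GRHL (-0.273). The NFI motif, in 10.3%, 10.0% and 9.95% of epithelium and 10.4%, 10.1% and 10.5% of mesenchyme peaks, overlapped, and so did the homeobox core (2.69%, 2.78% and 2.68% against 3.05%, 2.67% and 2.64%). TFAP2 overlapped as well (4.91%, 4.55% and 4.54% against 4.87%, 4.92% and 5.27%). Each of these motifs was separated in some other setting. Mesenchyme was higher by 0.317 points for the homeobox core at equal GC content, and over the whole peak by 0.544 for NFI and by 0.603 for TFAP2. Each had an exact permutation p of 0.1 (two-sided). For NFI no other setting did so. The difference was 0.313 with a 400 bp window (exact permutation p = 0.5) and 0.0666 in peaks of at least 300 bp (exact permutation p = 0.8). The homeobox difference changed sign with 1 library left out.

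**Figure D5:**
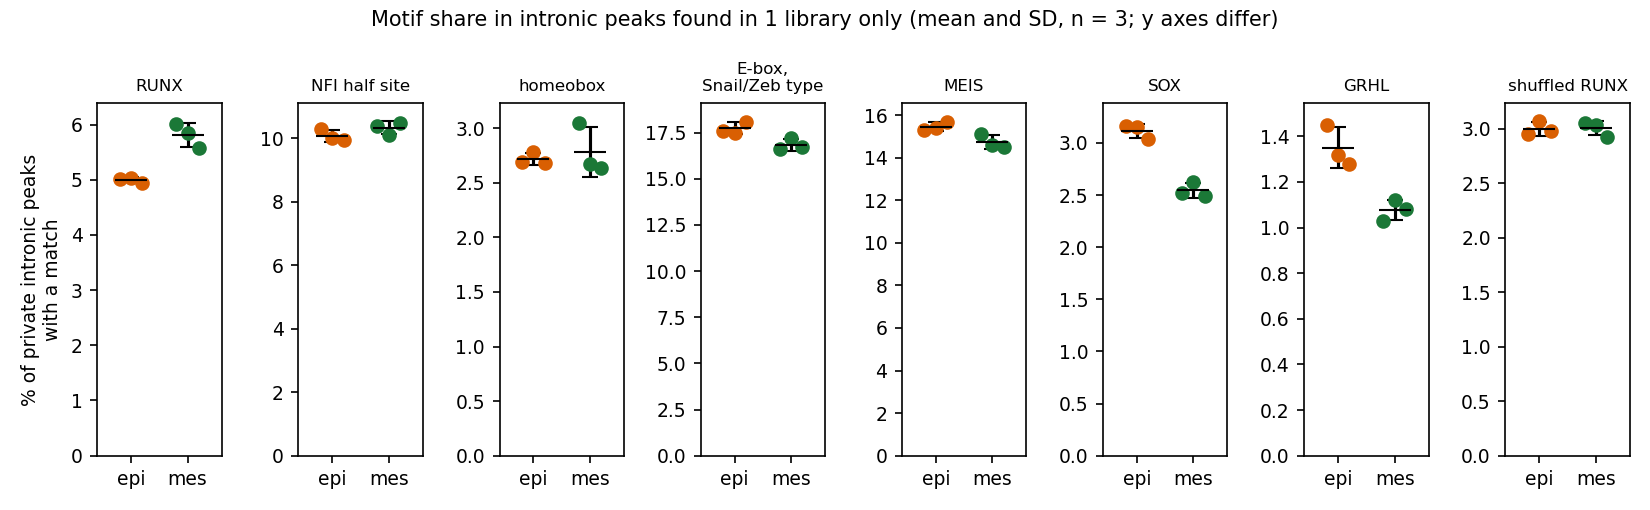
Share of intronic peaks listed in a single library that hold a motif (y axes, in percent, each from 0), for the epithelium (epi) and mesenchyme (mes) libraries; dots are libraries, and the bar and whiskers give mean and SD (n = 3). RUNX lies at 4.95 to 5.04% in epithelium and 5.58 to 6.01% in mesenchyme, and NFI, homeobox and the shuffled motif overlap.

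The same peaks differed a little in composition. Their GC content averaged 48.9%, 48.9% and 49.3% in epithelium and 49.5%, 49.4% and 49.9% in mesenchyme, 0.591 points higher in mesenchyme (exact permutation p = 0.1, two-sided, the smallest that 3 against 3 allows). First introns held 28.2%, 28.6% and 27.7% of them in epithelium and 26.9%, 26.5% and 27.2% in mesenchyme, a difference of -1.29 points (exact permutation p = 0.1, two-sided). In both measures epithelium and mesenchyme values were fully separate.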

How the data were processed

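Epithelium and mesenchyme of palatal shelves were profiled by ATAC-seq (3 libraries each). Trimming by the authors used Trimmomatic 0.38, alignment to mm10 Bowtie2, removal of duplicates SAMtools, and peak calling on nucleosome-free fragments, library by library, MACS2 2.1.1, with deepTools 2.0 also named (methods and submitters' notes). No source used here states the peak threshold. The deposited lists, per the authors' files, hold chromosome, start and end only, with no count or score, so the tests use peak positions.

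Peaks were merged at an overlap of 1 bp and placed with GENCODE M21 (GRCm38.p6) in Python 3.11.15 with numpy 2.4.6, pandas 2.3.3, scipy 1.17.1 and pysam 0.24.0. Regions with a peak in 2 or more libraries were kept. A gene hosted each region whose midpoint lay in its body, so overlapping genes share regions. Symbols were matched for all but 1 of 744 listed genes in 21 lists, and 213 hosted a region; the results of 1 list and of 1 named gene are not reported here. In the central 200 bp, 19 motifs (2 shuffled) were searched on both strands, and shares were weighted over 10 GC strata where the text says so. Groups followed the labels. Libraries were compared by exact permutation, two-sided. Regions are not replicates and motif shares over regions carry no test. The p-values measure the spread between these libraries. The merging, the lookup of positions in intervals, the permutation test and a motif search function were checked on simulated or made-up values. The placing of regions by starts, exons and gene bodies was not checked in this way.

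The regions and gene lists were chosen with earlier results of these data known. Named genes were the 12 with the most regions, up to 6 per list by the same count, and the hosts of the 10 widest cores; Irf8, Zfpm1, Galnt2, Fgf1, Ntn1 and Trp63 were named for their position or as markers, the first 5 after their values were seen, as were the core classes, the profile along regions and the counts of other regions.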

Additional observations from a re-analysis of the deposited data

How the results depend on the processing

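The number of mesenchyme-only intronic regions moved most with the presence rule: 17495 with a peak in at least 2 mesenchyme libraries and 9291 when 1 epithelium library was allowed, which also raised the listed host genes from 213 to 328. Leaving out 1 library gave 4871 to 9088. Peaks of at least 300 bp gave 2421, lists of equal length 2877 and whole regions in introns 3094. RefSeq bodies, added after seeing the data, gave 3364 regions and 209 listed hosts. The differences in single-library peaks turned sign for motifs with small differences. The E-box CAGATG went from -0.00143 points to 0.495 (400 bp), 0.543 (whole peak), 0.228 (all intronic peaks), 0.0140 (equal GC), 0.0592 (peaks of at least 300 bp) and -0.148 to 0.106 with 1 library left out. CAGCTG went to -0.0730 at equal GC and the homeobox core ran from -0.0620 to 0.145 with 1 library left out. GLI went to 0.00919 (all peaks) and 0.0290 (300 bp), TCF/LEF to -0.147 (400 bp), -0.137 (all peaks) and -0.0179 to 0.134 (1 library left out), and CTCF to -0.0139 (all peaks). Shuffled RUNX went to -0.0831 (400 bp) and -0.0217 to 0.0456 with 1 library left out, and shuffled NFI to 0.0688 (whole peak). The cause was not tested.

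With the replicate number as a block, the GC difference of 0.591 and the first-intron difference of -1.29 had an exact p of 0.25, the smallest possible with 3 pairs, and 11 motifs were at that p. Deviations of same-numbered libraries correlated weakly, at 0.0444, 0.0468 and 0.116, but every library correlated best with its own number, a hint of pairing. The labels do not say whether the numbers mark shared embryos, and pairing was not tested. Peak lists without heights cannot show graded differences, and the depth in reads is unknown.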
